A study of Homo sapiens with 4 samples.

Results

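Precursor B-cell acute lymphoblastic leukaemia (ALL) with a rearranged MLL gene can carry myeloid features or return as a myeloid leukaemia. The expression of 10 genes that set or mark the myeloid fate was therefore followed across all the lines of the series. They were the transcription factor genes SPI1, CEBPA, CEBPB, CEBPD, IRF8 and GFI1, the receptor genes CSF3R and CD33, and the genes of the granule and secreted enzymes MPO and LYZ. The members were named by gene symbol, and each was read from the probe set with the highest mean over the arrays. Of the 10 genes, 9 had a probe set that carried their symbol alone, among 18377 such genes on the array, and each of the 9 had exactly 1 probe set. CD33 is not analysed here.

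Total RNA of 4 established human lines of precursor B-cell ALL was profiled, each on a single Affymetrix whole-transcript array. The t(4;11) lines RS4;11 and SEM have the translocation that rearranges MLL (KMT2A), and the lines without it were NALM6 and REH. All were grown in RPMI with 10% fetal bovine serum to below confluence, with no other treatment named in the labels, and each is 1 line of 1 patient's leukaemia, so that any other difference between the lines enters the contrast. Values are log2 values from robust multi-array averaging (RMA), a fold change of 2 being a difference of 1, and array medians over all probe sets were 6.40 to 6.46. Precision is limited by the number of arrays.

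The myeloid fate is set by a small circuit of transcription factors. PU.1, the ETS-family product of SPI1, is needed by both myeloid cells and B cells and acts by dose, whereas C/EBPα, the product of CEBPA, drives granulocyte and monocyte progenitors and can turn B-lineage cells into macrophage-like cells when it is forced upon them. IRF8 works with PU.1 in monocytes, dendritic cells and B cells, and GFI1 is a zinc finger repressor that favours granulocytes over monocytes. Myeloperoxidase, the MPO product, is the enzyme by which the myeloid lineage is assigned in acute leukaemia, and lysozyme, the LYZ product, is secreted by monocytes and granulocytes.

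The promoters of 3 members are printed because they represent the patterns that follow: CEBPA was high in a single line, CEBPB was well above the dim end of the array in every line, and CSF3R, a gene known as a target of C/EBP factors and PU.1, stayed at that end in every line. Each window runs from 250 bases before to 50 bases after a RefSeq transcript start in GRCh38.p14, read 5′ to 3′ along the gene. Capitals mark matches on either strand to GAGGAA (a PU.1 core), TTNCNNAA (a C/EBP motif), TGTGGT (RUNX), CCAAT (the CCAAT box), TATAAA (the TATA box), TGACG (a CRE core) or CACGTG (an E-box), and no matches overlapped each other in these windows. RefSeq gives CEBPB and CSF3R 2 starts each here, and the downstream one is shown.
CEBPA, chr19:33302485-33302784, minus strand: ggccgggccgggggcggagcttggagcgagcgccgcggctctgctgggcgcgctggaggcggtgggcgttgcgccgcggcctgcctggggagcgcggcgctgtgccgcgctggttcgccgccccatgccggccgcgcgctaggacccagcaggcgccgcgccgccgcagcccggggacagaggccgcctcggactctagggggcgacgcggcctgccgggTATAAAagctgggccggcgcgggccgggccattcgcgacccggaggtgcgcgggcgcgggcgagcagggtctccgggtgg
CEBPB, chr20:50190580-50190879, plus strand: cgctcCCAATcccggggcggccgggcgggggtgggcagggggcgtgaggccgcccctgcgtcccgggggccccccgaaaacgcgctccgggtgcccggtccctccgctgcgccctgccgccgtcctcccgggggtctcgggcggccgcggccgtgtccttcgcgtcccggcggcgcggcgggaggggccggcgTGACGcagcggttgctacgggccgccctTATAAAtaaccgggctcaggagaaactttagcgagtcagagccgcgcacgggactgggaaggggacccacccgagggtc
CSF3R, chr1:36482864-36483163, minus strand: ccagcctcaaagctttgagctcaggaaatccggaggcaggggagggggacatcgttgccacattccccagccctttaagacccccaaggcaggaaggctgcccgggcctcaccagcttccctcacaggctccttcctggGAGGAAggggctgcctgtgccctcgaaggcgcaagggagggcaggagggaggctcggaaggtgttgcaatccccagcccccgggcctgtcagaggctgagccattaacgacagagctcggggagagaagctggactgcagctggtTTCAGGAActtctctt

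The CEBPA window was 80.7% G and C and held 1 of these motifs, a TATA box at -30 to -25 from the start. The CEBPB window, at 76.7% G and C, held a TATA box at -29 to -24, a CRE core at -57 to -53 and a CCAAT box at -245 to -241. The CSF3R window shown, at 62.7% G and C, had no TATA box but held GAGGAA at -111 to -106 and a C/EBP match at 35 to 42. The window of the upstream CSF3R start, at 44.3% G and C, had no GAGGAA. It held 3 C/EBP matches, TATAAA at -162 to -157, TGTGGT at 15 to 20 and a CCAAT box at -42 to -38. The upstream CEBPB window, at 77% G and C, held only a CCAAT box, at 3 to 7. The median over the 35116 promoter windows of RefSeq was 58.7% G and C, and the share of them that held each motif was 27.9% for GAGGAA, 36.8% for TTNCNNAA, 13.1% for TGTGGT, 34.6% for CCAAT, 11.5% for TATAAA, 24.6% for TGACG and 7.26% for CACGTG. These are matches of letters and show no binding. Promoters of 6 of the 10 members were in the table, those of CEBPA, CEBPB, CSF3R, GFI1, IRF8 and CD33, and the other members are named only.

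The B lineage of the lines was checked against its defining genes. PAX5, the factor that commits cells to the B lineage, lay between 11.61 and 11.90 in all 4 lines, and CD79A, a B-cell receptor chain, between 11.05 and 12.35. The T-cell receptor complex genes CD3D, CD3E and CD3G stayed between 4.54 and 4.97. Not all genes of either lineage list shared these levels: the mature B-cell gene MS4A1 lay between 4.45 and 5.05, VPREB1, a surrogate light chain gene, was at 5.51 in REH and 7.57 to 11.35 elsewhere, the T-cell kinase gene ZAP70 was at 5.59 in REH and 8.80 to 9.75 elsewhere, and LCK, another T-cell kinase gene, lay between 7.36 and 8.35. MEIS1, a HOX cofactor known to be high with a rearranged MLL gene, was at 11.30 in RS4;11 and 11.20 in SEM, against 4.92 in NALM6 and 4.82 in REH, while KMT2A itself was between 10.61 and 11.12 in all 4 lines. HOXA9 is not analysed here. As a yardstick for low signal, 31 genes of liver, muscle, eye, skin and other tissues gave values with quartiles of 4.72, 4.83 and 5.08. Their range of 4.34 to 11.89 was set at its upper end by PRL in RS4;11, and without PRL the highest value was 7.28. Probe sets differ in their own baseline, so that this yardstick is no detection call.

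None of the 9 measured members passed limma's test between the groups (0 of 9 at an adjusted p under 0.05, against a background of 0.0218% of all genes). At an adjusted p under 0.1 the count was also 0 of 9 (background 0.229%), and 0 of 9 had an unadjusted p under 0.05 (background 9.39%). None had groups separated by at least 2-fold (background 1.84%), and CEBPA was the 1 member of 9 whose groups did not overlap (background 42.8%). The median difference of the members, t(4;11) lines minus the others, was -0.06, beside 0.01 over all genes, and 4 of the 9 differences were positive. Where a member varied widely, a single line stood apart. In 4 of the 9, namely IRF8, LYZ, CEBPA and MPO, the highest and lowest line differed by at least 4-fold (background 7.56%), and in the same 4 genes 1 line stood at least 4-fold from each of the other lines (background 3.4%). The other 5 spanned less than 2-fold (background 80.7%). SEM stood above the other lines in CEBPA (1 of 9, background 0.691%), NALM6 below them in IRF8 (1 of 9, background 0.457%), and REH above them in MPO (1 of 9, background 0.756%) and below them in LYZ (1 of 9, background 0.479%). Within the groups, RS4;11 and SEM differed at least 4-fold in CEBPA alone (1 of 9, background 2.1%), and NALM6 and REH in IRF8, MPO and LYZ (3 of 9, background 3.3%). With 1 array per line, a difference between particular lines has no replicate error and was not tested. In RNA of whole cultures, fewer cells that express a gene and less of its RNA per cell cannot be told apart.

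**Figure D1:**
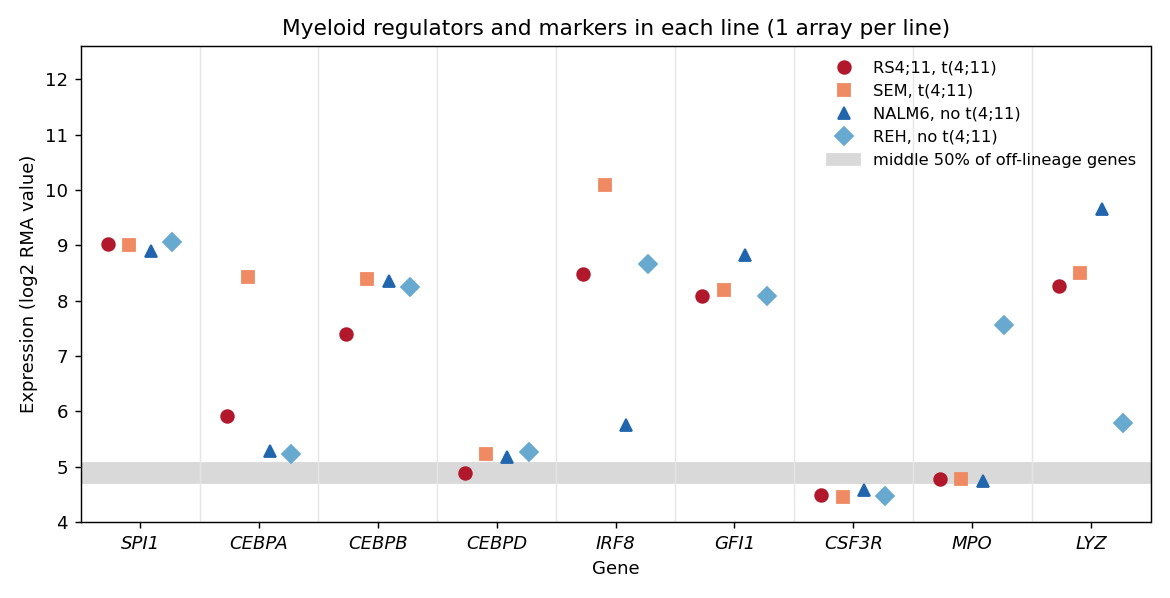
Expression of the 9 measured members (x axis) on the log2 scale (y axis), with 1 point per line and array. The grey band spans the quartiles of the values of 31 genes of unrelated tissues (4.72 to 5.08). SPI1 was level over the lines, CEBPA stood out in SEM at 8.43, MPO in REH at 7.57, IRF8 was lowest in NALM6 at 5.75 and LYZ lowest in REH at 5.80.

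**Figure D2:**
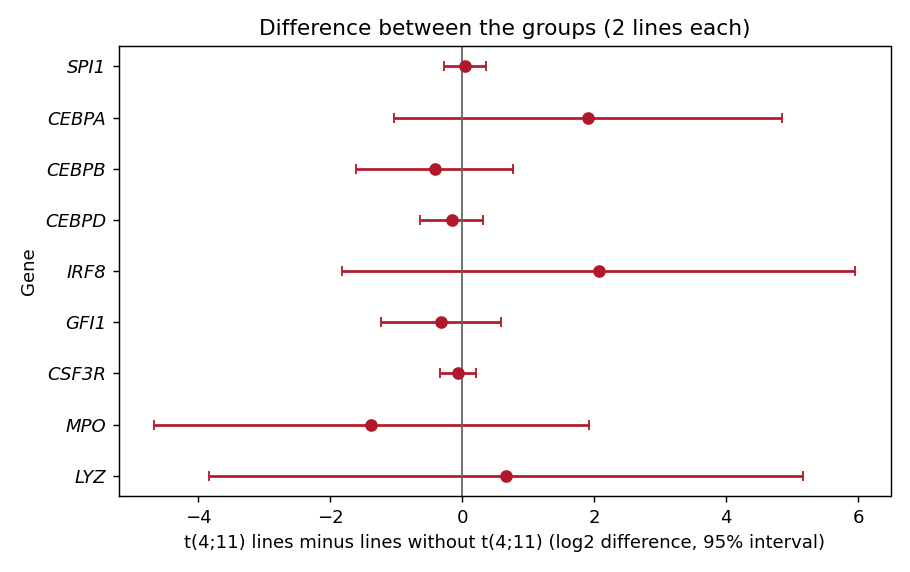
Difference between the t(4;11) lines and the lines without t(4;11) for each member (log2, 2 lines per group), as the limma estimate with its 95% interval. Every interval crossed 0, narrowly around 0 for SPI1 (-0.28 to 0.36) and broadly for LYZ (-3.84 to 5.16).

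SPI1 showed the same level in every line. It was at 9.03 in RS4;11 and 8.999 in SEM, against 8.89 in NALM6 and 9.06 in REH, a span of 0.16 or 1.12-fold, and 82.2% of all genes spanned at least as much. The group means were 9.02 ± 0.02 in the t(4;11) lines and 8.97 ± 0.12 in the lines without it (SD, n = 2 lines each). The difference was 0.04 (SE 0.11, limma adjusted p = 0.925), and its 95% interval of -0.28 to 0.36 is the range that these lines leave for it. Without NALM6 the sign turned, at -0.041.

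CEBPA was at 8.43 in SEM and at 5.91 in RS4;11, against 5.29 in NALM6 and 5.24 in REH. SEM stood 5.71-fold above RS4;11, the next line in the order, and 1.37% of all genes differed at least as much between these lines. RS4;11 itself lay 1.54-fold above NALM6, and NALM6 and REH were within 0.05 of each other. Both of these lay just above the upper quartile of the genes of unrelated tissues (5.08). The groups therefore did not overlap, at means of 7.17 ± 1.78 in the t(4;11) lines and 5.26 ± 0.03 in the lines without it (SD, n = 2 lines each), but the difference of 1.91 did not pass the test (SE 0.98, limma adjusted p = 0.676). It was 0.65 without SEM and 3.16 without RS4;11.

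CEBPB, whose product is the C/EBP factor of inflammatory and stress-driven granulocyte production, was at 7.40 in RS4;11 and 8.39 in SEM, against 8.36 in NALM6 and 8.25 in REH. RS4;11 was lowest, and the other lines lay within 0.14 of each other. The group difference was -0.41 (SE 0.40, limma adjusted p = 0.775), and it was 0.083 without RS4;11. CEBPD, which encodes a C/EBP factor of the acute-phase response, was at 4.89 in RS4;11 and 5.23 in SEM, against 5.17 in NALM6 and 5.27 in REH. All of its values lay inside or just above the quartiles of the genes of unrelated tissues. The group difference was -0.16 (SE 0.16, limma adjusted p = 0.781), and 0.0074 without RS4;11. Both CEBPA and CEBPB were higher in SEM than in RS4;11, by 2.51 and 0.99, but NALM6 and REH lay near the lower of these in CEBPA and near the higher in CEBPB.

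IRF8 had the widest span of the members, 20.2-fold, reached by 1.58% of all genes. It was at 8.47 in RS4;11 and 10.09 in SEM, against 5.75 in NALM6 and 8.67 in REH. NALM6 lay 6.61-fold below RS4;11, the next line, RS4;11 and REH stood next to each other, and SEM was highest. The groups overlapped, since REH exceeded RS4;11. Their means were 9.28 ± 1.14 in the t(4;11) lines and 7.21 ± 2.06 in the lines without it (SD, n = 2 lines each), a difference of 2.07 (SE 1.29, limma adjusted p = 0.722) that came to 0.62 without NALM6 and 3.53 without REH. NALM6 and REH themselves differed by 2.92, a gap met or exceeded in 1.83% of all genes.

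GFI1 was at 8.09 in RS4;11 and 8.19 in SEM, against 8.83 in NALM6 and 8.09 in REH. NALM6 was highest, 1.68-fold above REH, and the other lines lay within 0.10 of each other. The group difference was -0.32 (SE 0.30, limma adjusted p = 0.772), and without NALM6 it was 0.051. NALM6 thus had the highest GFI1 and the lowest IRF8 of the lines, while RS4;11 and SEM, near each other in GFI1, differed 3.06-fold in IRF8. A link between GFI1 and IRF8 was not tested.

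CSF3R encodes the receptor for granulocyte colony-stimulating factor, which supports neutrophil precursors. It was at 4.48 in RS4;11 and 4.46 in SEM, against 4.57 in NALM6 and 4.48 in REH, below the lower quartile of the genes of unrelated tissues in every line. The span of 0.12 was met or exceeded by 91.7% of all genes, and the group difference was -0.06 (SE 0.09, limma adjusted p = 0.867). SEM, the line with the highest CEBPA, had the lowest CSF3R value of the lines, within that small span.

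MPO was at 4.78 in RS4;11 and 4.79 in SEM, against 4.75 in NALM6 and 7.57 in REH. The first 3 values lay between the quartiles of the genes of unrelated tissues, and REH, which lacks t(4;11), stood above the other lines. The group means were 4.78 ± 0.0012 in the t(4;11) lines and 6.16 ± 1.997 in the lines without it (SD, n = 2 lines each), with a difference of -1.37 (SE 1.10, limma adjusted p = 0.749) that was 0.039 without REH. The granule proteases and relatives that myeloid precursors make together with MPO did not share its level in REH. ELANE, the neutrophil elastase gene, had 5.89 in REH and 5.82 to 6.03 elsewhere. PRTN3, CTSG and AZU1, the genes of proteinase 3, cathepsin G and azurocidin, were at 5.23, 4.99 and 5.03 in REH, and all 3 had 4.95 to 5.23 elsewhere. Some other myeloid genes were highest in REH, by less than 4-fold. KIT was at 5.74 in REH and 4.31 to 4.63 elsewhere, CEBPE at 6.32 and 5.64 to 5.88, and ITGAM at 5.73 and 5.08 to 5.28. TNFRSF1A was at 9.52 in REH and 8.24 to 8.43 elsewhere. Others were lowest in REH, among them ITGB2 (7.28, against 8.30 to 9.37), SRGN (6.41, against 8.09 to 11.04) and TLR4 (4.83, against 5.85 to 8.95).

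LYZ had its highest and its lowest value in the lines without t(4;11). It was at 8.27 in RS4;11 and 8.50 in SEM, against 9.65 in NALM6 and 5.80 in REH, and the t(4;11) lines lay between the others. NALM6 exceeded REH 14.4-fold, a gap met by 0.898% of all genes, and REH lay 5.55-fold below RS4;11, the next line. The group difference was 0.66 (SE 1.496, limma adjusted p = 0.913), and without REH it was -1.27. MPO and LYZ therefore had opposite places in REH, which had the highest MPO and the lowest LYZ of the lines.

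**Figure D3:**
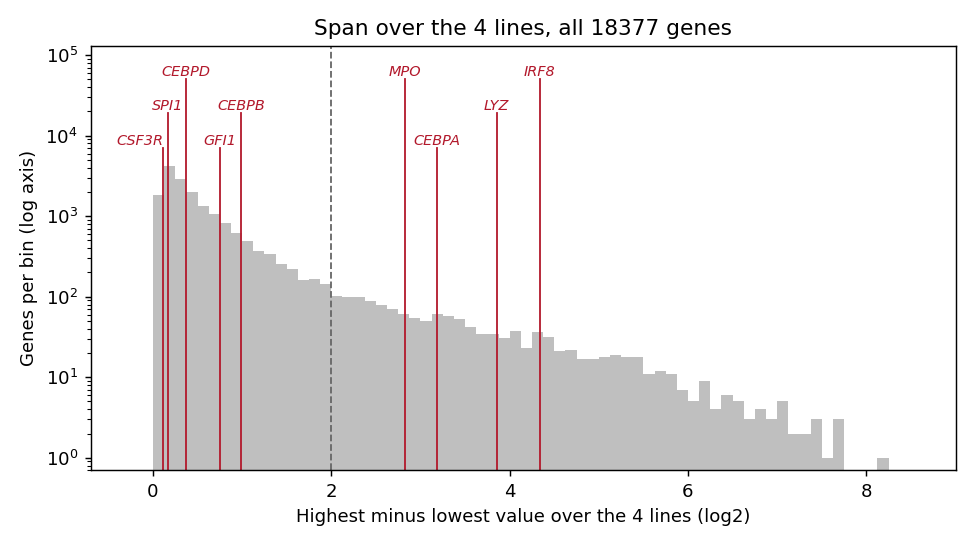
Number of genes (y axis, log scale) by their span over the 4 lines (x axis, highest minus lowest log2 value), with the 9 members marked and the 4-fold limit dashed. IRF8, LYZ, CEBPA and MPO lay beyond the limit with 7.56% of all genes, and the other 5 members lay within 2-fold.

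For each of the 4 members past the 4-fold span, the genes with the most similar profile were found by the Euclidean distance between profiles centred on their mean over the 4 lines. With so few lines, many genes share a shape, and the likeness is a description. Closest to CEBPA were KCNMA1, a potassium channel gene, at 7.80 in SEM and 4.63 to 5.38 in the other lines (distance 0.08), the helix-loop-helix repressor gene BHLHE41 (0.20) and ANTXR1, a receptor gene of anthrax toxin (0.21). Closest to MPO were the adhesion gene SDK1, at 7.84 in REH and 4.997 to 5.08 in the other lines (0.09), the POU factor gene POU4F1 (0.14) and REG1B (0.15). The nearest genes to LYZ were DNAJC12, a co-chaperone gene (0.42), ITGAV, the integrin alpha V gene (0.63), and TM6SF1 (0.63). The nearest to IRF8 were GOLM1, a Golgi membrane protein gene (0.54), APBB2 (0.56) and RFLNB (0.59). None of these genes is on the myeloid lists used here.

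Beyond the members, 102 further genes were measured in myeloid lists of transcription factors, granule proteins, growth factor receptors, surface antigens and genes of innate signalling. Some of them, such as BACH2, IRF4 and LYN, also act in B cells. In these, 0 of 102 passed limma's threshold (background 0.0218%), 2 had an adjusted p under 0.1 (background 0.229%) and 10 had an unadjusted p under 0.05, near the background of 9.39%, while 6 had groups separated at least 2-fold, 4 upward (background 0.963%) and 2 downward (background 0.876%) in the t(4;11) lines. The upward ones were CD44, SRGN, CST7 and CD93, and the downward ones CYBB and BACH2. CYBB, which encodes the catalytic subunit of the phagocyte NADPH oxidase, was at 5.02 in RS4;11 and 4.66 in SEM, against 10.86 in NALM6 and 10.68 in REH (difference -5.93, SE 0.18, limma adjusted p = 0.0513). CD44, the hyaluronan receptor gene, was at 11.01 and 11.08 in RS4;11 and SEM, against 6.37 and 5.98 in NALM6 and REH (4.87, SE 0.17, limma adjusted p = 0.0587). These were the 2 genes with an adjusted p under 0.1. The CYBB values in RS4;11 and SEM lay below the upper quartile of the genes of unrelated tissues, near the dim end. Serglycin, the SRGN product, is the proteoglycan that packs granule proteins. It was at 10.29 in RS4;11 and 11.04 in SEM, against 8.09 in NALM6 and 6.41 in REH (difference 3.42, SE 0.71, limma adjusted p = 0.405). CST7, which encodes a cystatin that restrains lysosomal proteases, was at 10.83 and 9.84 in RS4;11 and SEM, against 8.08 and 6.99 in NALM6 and REH (2.80, SE 0.58, limma adjusted p = 0.399). CD93, a surface glycoprotein gene of early progenitors and myeloid cells, was at 8.002 and 8.24, against 6.07 and 6.75 in the same order (1.71, SE 0.29, limma adjusted p = 0.330).

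Of the 22 measured genes of the granule list, SRGN and CST7 included, 0 passed in either direction (background 0.0218%) and 19 spanned less than 2-fold over the lines, a share near that of all genes (background 80.7%). The macrophage lysosomal gene CD68 was at 6.77 in RS4;11 and 8.11 in SEM, against 7.21 in NALM6 and 6.85 in REH. The list median lay at 5.27 in RS4;11 and 5.16 in SEM, against 5.25 in NALM6 and 5.20 in REH. The lysosomal protease gene CTSD was at 9.99 ± 0.17 in the t(4;11) lines and 9.46 ± 0.12 in the lines without it (SD, n = 2 lines each, limma adjusted p = 0.478). In the C/EBP family, 0 of 7 genes passed (background 0.0218%) and 1 of 7, CEBPA, spanned 4-fold (background 7.56%). DDIT3, the stress-induced member, was at 8.30 in RS4;11 and 8.07 in SEM, against 8.46 in NALM6 and 8.79 in REH (difference -0.44, SE 0.18, limma adjusted p = 0.604).

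Among 11 growth factor receptor genes, 0 passed (background 0.0218%). CSF1R, the receptor for macrophage colony-stimulating factor and a known PU.1 target, was at 5.88 in RS4;11 and 7.69 in SEM, against 5.53 in NALM6 and 5.66 in REH (difference 1.18, SE 0.71, limma adjusted p = 0.712). It was highest in SEM, as CEBPA was. CSF2RB, the common beta chain of the receptors for GM-CSF, IL-3 and IL-5, was at 8.03 and 7.48, against 9.47 and 8.30 in the same order (limma adjusted p = 0.632), and FLT3 was at 11.34 and 12.82, against 8.46 and 10.35 (limma adjusted p = 0.555). The factor list gave 0 of 24 past the threshold, with the same background. BACH2, a repressor that holds B-cell identity against myeloid genes, was at 9.27 in RS4;11 and 6.52 in SEM, against 11.01 in NALM6 and 10.70 in REH (difference -2.96, SE 1.07, limma adjusted p = 0.565). EGR1, an immediate early factor that also acts in monocytes, was at 6.83 and 8.71, against 6.34 and 6.47 (limma adjusted p = 0.687).

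When the same 102 genes were read by line, SEM stood at least 4-fold above each other line in 5 (background 0.691%) and below in 1 (background 0.207%). The 5 were VCAN, the proteoglycan versican of monocytes, ANPEP, which encodes the myeloid antigen CD13, the costimulator gene CD86, and the helix-loop-helix inhibitor genes ID1 and ID2, and the 1 below was BACH2. ANPEP was at 10.93 in SEM and 5.48 to 5.67 elsewhere, and VCAN at 9.76 in SEM and 4.37 to 4.47 elsewhere. The VCAN values outside SEM lay below the lower quartile of the genes of unrelated tissues, so no exact fold is given for it. CD86 was at 8.46 in SEM and 5.01 to 5.05 elsewhere. Several monocyte genes did not share this place. CD14, the endotoxin co-receptor, was at 4.64 in SEM and 4.59 to 4.81 elsewhere. S100A8, S100A9, S100A12 and FCN1 were at 4.19, 4.88, 4.45 and 5.38 in SEM, each inside the range of the other lines. Of the surface antigen genes, SIGLEC9 was highest in SEM (6.94, against 5.19 to 5.30), and LILRB1 was lowest there (5.13, against 5.74 to 7.35). The B-lineage list also set SEM apart, with 4 of its 16 measured genes (CD24, CD79B, CD9 and IGLL1) at least 4-fold below each other line in SEM, and a list median of 8.42 in SEM against 10.67 to 11.19 in the other lines. The 2 largest group differences of that list were low in both t(4;11) lines. DNTT, the terminal transferase gene, was at 6.88 in RS4;11 and 5.11 in SEM, against 11.54 in NALM6 and 12.43 in REH (limma adjusted p = 0.279), and BLNK, a signalling adaptor gene, at 7.15 and 5.35, against 10.66 and 11.74 in the same order (limma adjusted p = 0.327). With CD24, they were the 3 of 16 separated at least 2-fold, all lower in the t(4;11) lines (background 0.876%). PAX5 in SEM, at 11.90, was the highest of the lines. Whether the B-lineage and myeloid differences of SEM are linked was not tested.

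NALM6 stood above each other line by at least 4-fold in 1 of the 102 genes (background 0.424%), CLEC12A, a lectin receptor gene of myeloid cells, at 9.40 in NALM6 and 4.32 to 4.47 elsewhere. REH stood below in 2 (background 0.479%). These were IRF4, the relative of IRF8 that acts in plasma cells and B-cell precursors, with 5.67 in REH and 9.74 to 11.49 elsewhere, and LYN, a SRC-family kinase gene of B and myeloid cells, with 7.76 in REH and 11.27 to 11.87 elsewhere. LYZ had the same place. RS4;11 stood apart in 0 of the 102 genes upward (background 0.163%) and 0 downward (background 0.245%). The lists of T and NK cells, of red cells and platelets, and of mast cells, basophils and eosinophils had 0 of 19, 0 of 14 and 0 of 7 genes past limma's threshold (background 0.0218%). NKG7, a granule membrane gene of cytotoxic cells on the first of these lists, was at 10.99 in RS4;11 and 9.13 in SEM, against 6.39 in NALM6 and 7.11 in REH (limma adjusted p = 0.429). ZAP70 and the T-helper co-receptor gene CD4 had the next largest differences of that list, at 1.999 and -1.52 (limma adjusted p = 0.737 and 0.689).

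**Figure D4:**
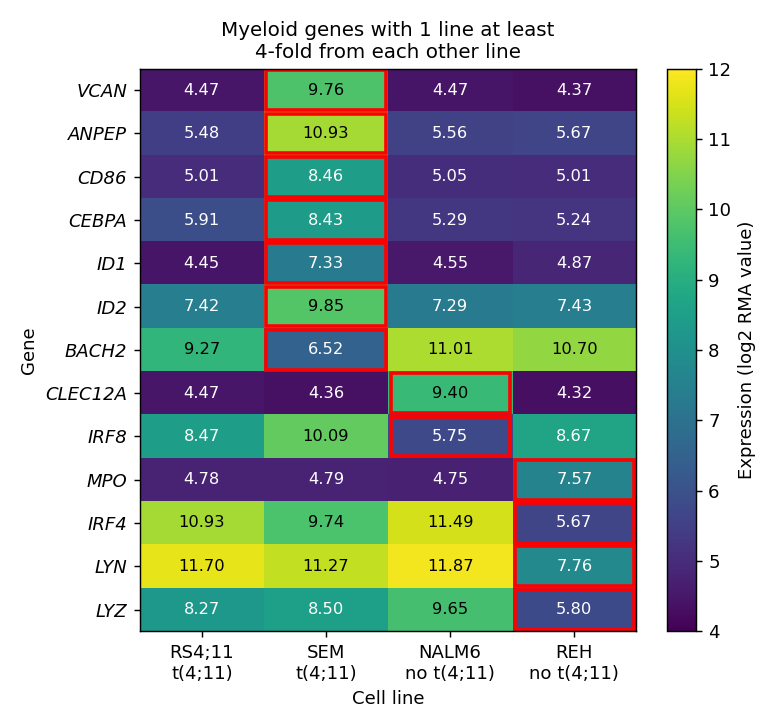
Log2 expression in each line (columns) of 13 genes of the myeloid lists, members included. In each, 1 line lay at least 4-fold from each other line and is boxed in red. The colour scale gives the value. The 13 include genes that also act in B cells, such as BACH2, IRF4 and LYN. SEM carried 7 of the 13, NALM6 2 and REH 4, and RS4;11 none, with both directions counted. Of all genes, 3.4% had 1 line so placed. Above and below the other lines, the shares were 0.691% and 0.207% for SEM and 0.424% and 0.457% for NALM6. They were 0.756% and 0.479% for REH and 0.163% and 0.245% for RS4;11.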

How the data were processed

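The table of 4 arrays of human precursor B-cell ALL lines holds 32968 probe sets. The deposited values come from RMA, with Partek software also named, per the submitters' processing notes, and for versions and annotation build the sources used here give nothing. The deposited values were taken as log2 from their range, since the table states no scale. Quantile normalization within RMA removes array-wide differences, and no detection calls are given.

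Probe sets with exactly 1 symbol (19310) gave 18377 genes, each by its highest-mean probe set, and 19279 probe sets matched RefSeq (GRCh38.p14) by Entrez ID. The contrast was t(4;11) lines (RS4;11 replicate 1, SEM replicate 2) minus the others (NALM6 replicate 1, REH replicate 2), by limma 3.58.1 in R 4.3.3 without covariates, two-sided, Benjamini-Hochberg adjusted over all genes. The limma p-values set the group difference against the spread between lines within the groups, moderated by that of all genes. An exact test of 2 lines against 2 cannot go below p = 0.333. The fit was tested on simulated data. Python 3.11.15 and pandas 2.3.3 made the summaries.

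The members and lists were chosen with earlier results of these data known. Named were all members, the genes of each list that passed or were separated 2-fold, the 3 largest differences per list (given for lists discussed) and the 3 nearest profiles per member spanning 4-fold. Granule genes beside MPO, CD14, CD68, MS4A1, VPREB1, LCK, PRL and genes with 1 line apart were chosen after their values were seen. So were S100A8, S100A9, S100A12, FCN1, SIGLEC9, LILRB1, KIT, CEBPE, ITGAM, TNFRSF1A, ITGB2 and TLR4. Alternatives covered scaling, probe set choice, dim genes, moderation, thresholds and leaving out each line.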

Additional observations from a re-analysis of the deposited data

How the results depend on the processing

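No paired analysis was possible because the replicate numbers only name the lines. The 0 members past limma's threshold stayed 0 under repeated quantile normalization, median centring, the mean of probe sets, removal of dim genes (which drops CEBPD and CSF3R), other moderation, all probe sets, an adjusted p under 0.1 and without each line, and the lowest adjusted p of any member was 0.115. Over all 18377 genes the count of 4 was 28 after median centring and 0 without moderation. It was 17 of the 10259 genes left without dim genes, and 12 of all 32968 probe sets, with or without a symbol. The count of members separated by 2-fold was 1 at a gap of 1.5-fold and ranged from 0 to 2 without each line. The count spanning 4-fold, tried after seeing the data, ranged from 2 (without REH) to 4. The members' median difference lay between -0.10 and 0.03 without each line and was 0.04 without dim genes. Of 115 member differences under the alternatives, 109 kept their sign and side of the threshold and 6 turned sign, each without 1 line, for SPI1 (-0.041 to 0.12 without each line), CEBPB (-0.91 to 0.083), CEBPD (-0.33 to 0.0074), GFI1 (-0.70 to 0.051), MPO (-2.79 to 0.039) and LYZ (-1.27 to 2.59). The cause was not tested. Other moderation, thresholds, probe set choices and the removal of dim genes left each member's difference itself unchanged, each member having 1 probe set. Those settings could not turn a sign, so the 109 are no measure of stability. RMA values compress folds near the dim end, where CEBPD, CSF3R and most MPO values lay, and those of VCAN outside SEM and of CLEC12A outside NALM6.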
